A study of Homo sapiens with 40 samples.

Results

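The 43 genes described here charge transfer RNAs with amino acids, make or import amino acids, or regulate and carry out the response to amino acid shortage. They were listed by symbol and found through the array's annotation, in which most cytosolic synthetases carry a trailing 1 (AARS1 for AARS). Probes were listed for 41 of the 43, and all 41 passed the filter on dim probes, among 13461 genes tested in the whole series. They are 18 cytosolic tRNA synthetases, 8 enzymes of amino acid and folate metabolism, 6 amino acid transporters, and 9 regulators and stress effectors. No probe was listed for CARS or DARS.

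Aminoacyl-tRNA synthetases join each amino acid to its transfer RNA before translation. When an amino acid runs short, uncharged tRNA activates the kinase GCN2 (EIF2AK4), which phosphorylates the initiation factor eIF2. Phosphorylated eIF2 slows most translation but raises that of the transcription factor ATF4. ATF4, with C/EBP partners, binds the C/EBP-ATF response element and switches on synthetases, asparagine and serine synthesis, amino acid transporters and its own feedback inhibitors. Stress of the endoplasmic reticulum reaches the same factors through another eIF2 kinase. Pluripotent cells are known for a high demand on this metabolism: mouse embryonic stem cells depend on threonine, and human embryonic stem cells are sensitive to loss of methionine.

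The study measured RNA on Illumina bead arrays in the human embryonic stem cell lines H1 and H9, kept on Matrigel in mTeSR medium. H1 cells carried lentivirus with OCT4 shRNA (shOCT4, against POU5F1, the gene for OCT4), NANOG shRNA (shNANOG), SOX2 shRNA (shSOX2) or the control virus H1P, and H9 cells carried OCT4 shRNA with no H9 control among the samples used here. All arms were transduced with polybrene present and sampled once a day from day 0 to day 7, so each arm is 1 time course with no repeated culture named. There were 8 arrays each of H1 OCT4 shRNA, H1 SOX2 shRNA, H9 OCT4 shRNA and H1 control, and 7 of H1 NANOG shRNA, whose day 7 array lay on another scale and was left out. Days were grouped as days 0 and 1, days 2 and 3, and days 4 to 7, and days of a window stand in for replicates. The spread of a gene was estimated once from all arms and windows together, H9 included. The p-values and standard errors therefore measure scatter between days within cultures, pooled over the arms, not scatter between repeated cultures. A level is the log2 of a background-corrected intensity, a difference is between levels, and a gene is called at an adjusted p under 0.05 in a limma fit over all genes (Benjamini-Hochberg adjustment). Levels of different genes come from different probes and are not set against each other. Where arrays of 2 groups are said not to overlap, the genes were mostly named for their large differences. Overlap was not counted over all genes, so it describes the values and adds no test.

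The targeted genes were lower in their own arms. On days 4 to 7 POU5F1 averaged 6.79 ± 0.29 in H1 OCT4 shRNA cells and 12.70 ± 0.13 in H1 control cells (SD, n = 4 each), NANOG averaged 6.66 ± 0.22 in NANOG shRNA cells (n = 3) and 8.77 ± 0.25 in control cells (n = 4), and SOX2 averaged 10.16 ± 0.18 in SOX2 shRNA cells and 12.16 ± 0.25 in control cells (n = 4 each). H9 cells with OCT4 shRNA kept more POU5F1 RNA, 9.33 ± 0.66 on days 4 to 7 against 11.69 ± 0.22 on days 0 and 1. SOX2 was already low in SOX2 shRNA cells on days 0 and 1, at 9.92 ± 0.08 against 11.89 ± 0.18 in control cells (SD, n = 2 each). The list of 8 human embryonic stem cell markers, which holds the targeted genes, lay between 12.06 and 12.19 on late control arrays, far above the background level of 6.58. On late OCT4 shRNA arrays it lay between 9.04 and 10.46 in H1 and between 11.1 and 11.59 in H9 cells. It lay between 11.1 and 11.52 on late NANOG shRNA arrays and between 11.56 and 11.73 on late SOX2 shRNA arrays. Markers of other cell states moved with the arms. In H1 OCT4 shRNA cells all 9 cycling-cell markers were lower and all 8 trophoblast or amnion markers higher than in control. The mean level of the cycling list lay between 9.03 and 9.62 on late OCT4 shRNA arrays and between 10.13 and 10.31 on late control arrays. The trophoblast or amnion list lay between 9.96 and 10.37 on the OCT4 shRNA arrays and between 6.41 and 6.53 on the control arrays, at or under background. The fibroblast list, with 6 of 7 genes higher, lay between 9.15 and 10.65 against 8.24 and 8.47 in control. In NANOG shRNA cells 4 of 5 neuroectoderm markers were higher, and their mean level lay between 8.91 and 9.66 on late NANOG shRNA arrays and between 7.57 and 8.26 on late control arrays. There 6 of 8 stem cell markers were lower, among them POU5F1 (-1.18 ± 0.28), and of 7 fibroblast markers 1 was higher and 2 lower. In SOX2 shRNA cells PDGFRB and COL1A2 (fibroblast) and ISL1 (trophoblast or amnion) were higher, and SOX2, OTX2 (neuroectoderm) and BUB1 (cycling) were lower. The part of these shifts in the results that follow was not tested, and in bulk RNA fewer cells of a type and less RNA per cell cannot be told apart. The 1 measured marker of blood and endothelial cells was called in none of the 3 comparisons with control.

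Promoter sequences were read from RefSeq (GRCh38.p14), which listed 35 of the 43 genes. Missing are DARS, LARS, VARS, YARS, PSPH, SHMT2, PYCR1 and SLC7A11. The letters TGATGNAAN of the C/EBP-ATF response element were searched on both strands of the 300 bases from 250 before the gene start onward, at the first start listed for each gene. They occurred in 11 of the 35 promoters (31.4%) and in 3.67% of 27305 promoters of all genes. With every listed start counted, 14 of 35 genes (40%) and 4.45% of all genes had a match. The 43 genes were listed in part as genes of the response that acts through this element. A share above that of all genes is therefore partly built into the list and is no separate finding. The E-box CACGTG, which does not overlap the other motif here, occurred in 4 of the 35 (IARS, ALDH18A1, SLC7A5 and ATF4) and in 7.43% of all promoters. The promoters of ASNS, ATF3 and PSAT1 are shown whole, 5′ to 3′ on the gene's strand, because these are an enzyme that fell most, a regulator that rose most and an enzyme that fell with no match in this window. Capitals mark the response element.
ASNS (chr7:97872359-97872658, minus strand): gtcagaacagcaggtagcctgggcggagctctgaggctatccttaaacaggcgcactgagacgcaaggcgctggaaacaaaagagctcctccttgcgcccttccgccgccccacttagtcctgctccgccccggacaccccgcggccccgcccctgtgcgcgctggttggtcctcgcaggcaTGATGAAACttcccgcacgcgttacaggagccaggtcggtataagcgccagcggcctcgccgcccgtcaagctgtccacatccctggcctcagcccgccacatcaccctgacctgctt
ATF3 (chr1:212565157-212565456, plus strand): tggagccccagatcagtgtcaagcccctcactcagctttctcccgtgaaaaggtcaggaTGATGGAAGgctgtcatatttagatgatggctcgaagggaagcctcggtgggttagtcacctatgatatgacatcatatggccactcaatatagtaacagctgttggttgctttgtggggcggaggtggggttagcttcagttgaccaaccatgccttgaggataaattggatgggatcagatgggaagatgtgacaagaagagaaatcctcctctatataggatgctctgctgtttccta
PSAT1 (chr9:78296875-78297174, plus strand): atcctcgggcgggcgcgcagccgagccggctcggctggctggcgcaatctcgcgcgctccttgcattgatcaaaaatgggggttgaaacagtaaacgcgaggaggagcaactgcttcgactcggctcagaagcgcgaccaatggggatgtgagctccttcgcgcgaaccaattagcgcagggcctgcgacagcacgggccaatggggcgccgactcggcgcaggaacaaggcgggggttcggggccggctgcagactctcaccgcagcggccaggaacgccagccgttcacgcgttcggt

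Around the response element the 10 measured genes that hold it read as follows, each printed on the strand that reads TGATG, with the 9 motif bases in capitals and up to 10 bases on either side. They are shown because genes that hold the same short element in this window moved in opposite directions in the arrays. The element lies before the start base in AARS, IARS, ASNS, ATF3 and CHAC1, across it in MARS and after it in NARS, TARS, SLC3A2 and SLC7A1.
AARS (chr16:70289676-70289704, plus strand): ctaacttggcTGATGCAACtgcgagaaaa
IARS (chr9:92293693-92293721, plus strand): cgcacggaggTGATGCAACgcgctgaaaa
MARS (chr12:57488053-57488081, minus strand): aatccctcgcTGATGCAACcggaaccggc
NARS (chr18:57621804-57621832, minus strand): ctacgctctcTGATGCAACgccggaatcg
TARS (chr5:33440956-33440984, minus strand): ctggaccagcTGATGCAATcgaaaggcgc
ASNS (chr7:97872458-97872486, minus strand): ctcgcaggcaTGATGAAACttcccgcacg
SLC3A2 (chr11:62881725-62881748, minus strand): ggagcTGATGTAAGgagtcctgca
SLC7A1 (chr13:29595663-29595691, minus strand): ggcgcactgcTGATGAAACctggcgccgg
ATF3 (chr1:212565206-212565234, plus strand): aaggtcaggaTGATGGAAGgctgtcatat
CHAC1 (chr15:40953251-40953279, minus strand): ctggcaggagTGATGCAACggcaggggag
The match lay from base -68 to base -60 in ASNS, from -188 to -180 in AARS and from -210 to -202 in CHAC1, counting the start base as 0. It lay within 22 bases of the start in IARS, MARS, NARS, TARS and SLC7A1. A match of letters is a description and no evidence of binding. In H1 OCT4 shRNA cells on days 4 to 7 the calls among these 10 were AARS, IARS, TARS, ASNS and CHAC1 lower and ATF3 higher, and MARS, NARS, SLC3A2 and SLC7A1 did not pass. The opposite direction in these cells thus rests on ATF3 alone, whose match was read at its first listed start.

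In H1 cells with OCT4 shRNA all 8 enzymes of amino acid and folate metabolism among the 41 genes were lower than in control. Synthetases and regulators went both ways. On days 4 to 7, against H1 control, 7 of the 41 genes were higher and 19 lower. Over all genes tested 23.8% were called higher and 24.3% lower in this comparison, so the share called higher among the 41 lay below that of all genes and the share called lower above it. The median difference was -0.26 over the 41 genes and 0 over all genes. By group, 8 of 8 enzymes were lower, 6 of 18 synthetases were lower and 3 higher, 1 of 6 transporters was lower and 2 higher, and 4 of 9 regulators and effectors were lower and 2 higher. Counting from linear slopes over days, 14 of the 41 were called in place of 26, and 13 when the difference already present on days 0 and 1 was subtracted.

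**Figure D1:**
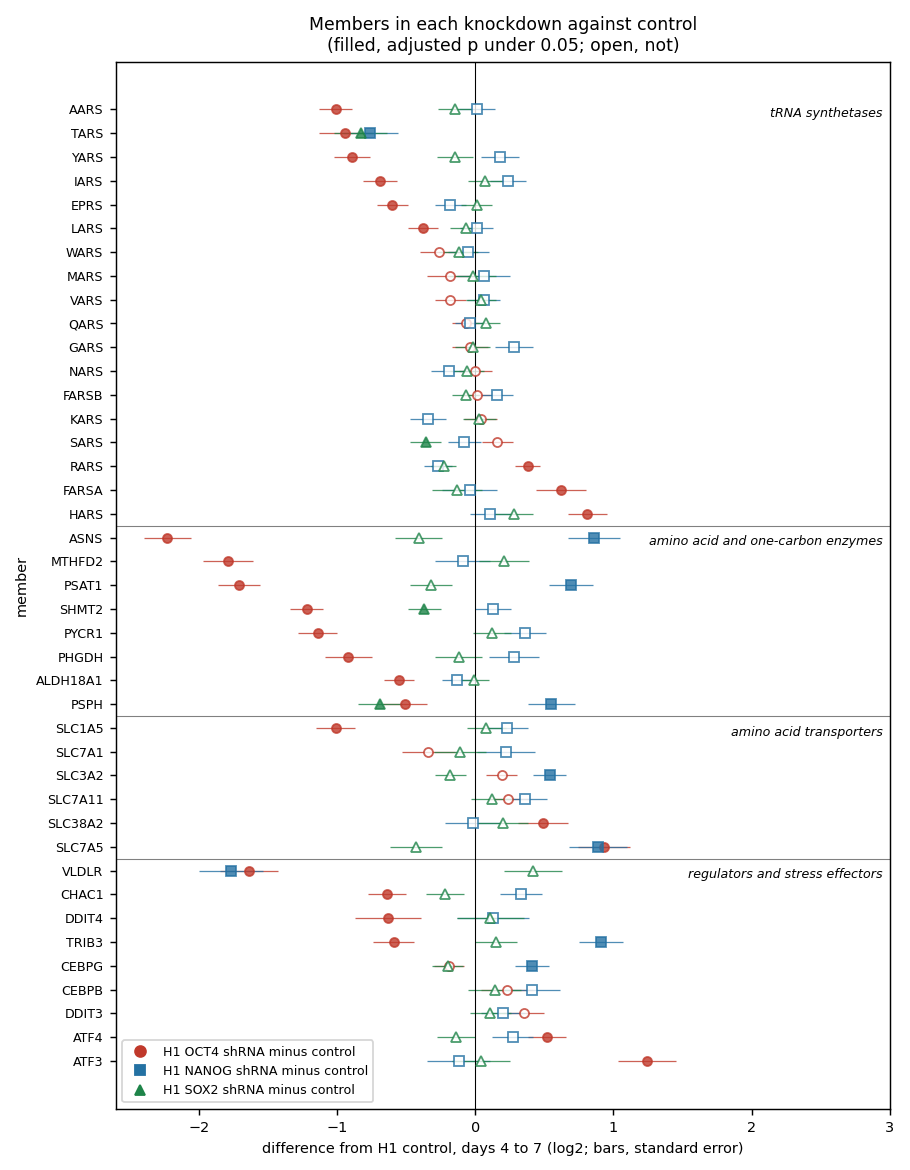
Difference in level from H1 control on days 4 to 7 for the 41 genes (horizontal axis, log2; bars, standard error), ordered by group, for H1 OCT4 shRNA, NANOG shRNA and SOX2 shRNA. Filled symbols passed an adjusted p under 0.05; all 8 enzymes are filled and left of 0 for OCT4 shRNA, between -2.23 and -0.51.

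ASNS, which makes asparagine, had levels of 9.13, 8.97, 8.98 and 9.55 on days 4 to 7 in OCT4 shRNA cells, against 11.40, 11.40, 11.62 and 11.13 in control cells. The groups did not overlap, and on days 0 and 1 the arms lay at 12.19 and 12.21 (OCT4 shRNA) and 12.44 and 12.18 (control). The difference was -2.23 ± 0.17 (SE; limma adjusted p = 3.38e-12). MTHFD2, the mitochondrial folate enzyme that is high in embryonic and cancer cells, had 8.19, 8.31, 8.75 and 8.97 in OCT4 shRNA cells, against 10.55, 10.33, 10.31 and 10.18 in control cells. Its lowest value came on day 4 and each later day was higher, yet every late OCT4 shRNA array stayed below every control array (-1.79 ± 0.18, limma adjusted p = 1.13e-09).

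PSAT1, the aminotransferase of serine synthesis, had 9.80, 9.60, 9.69 and 9.90 in OCT4 shRNA cells, against 11.29, 11.46, 11.79 and 11.27 in control cells (-1.71 ± 0.15, limma adjusted p = 3.31e-11). SHMT2, which splits serine into glycine and a folate-bound carbon in mitochondria, had 11.15, 10.92, 10.93 and 11.44 in OCT4 shRNA cells, against 12.26, 12.44, 12.42 and 12.19 in control cells (-1.22 ± 0.12, limma adjusted p = 2.57e-10). Neither gene's groups overlapped. The other enzymes had smaller differences: PYCR1, the last step of proline synthesis, of -1.14 ± 0.14, PHGDH, the first step of serine synthesis, of -0.92 ± 0.17, ALDH18A1, the first step of proline synthesis, of -0.55 ± 0.11, and PSPH, the last step of serine synthesis, of -0.51 ± 0.16 on the log2 scale. PHGDH parted from control late, with 13.62, 12.88, 12.30 and 12.33 on days 4 to 7 in OCT4 shRNA cells, against 13.83, 13.69, 13.56 and 13.73 in control cells, and the groups overlapped through day 4. PSPH lost its call without day 5 of all arms (-0.43). Second probes of ASNS (-1.11), PSPH (-0.29) and PYCR1 (-0.44 and -0.41) had smaller differences of the same sign.

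**Figure D2:**
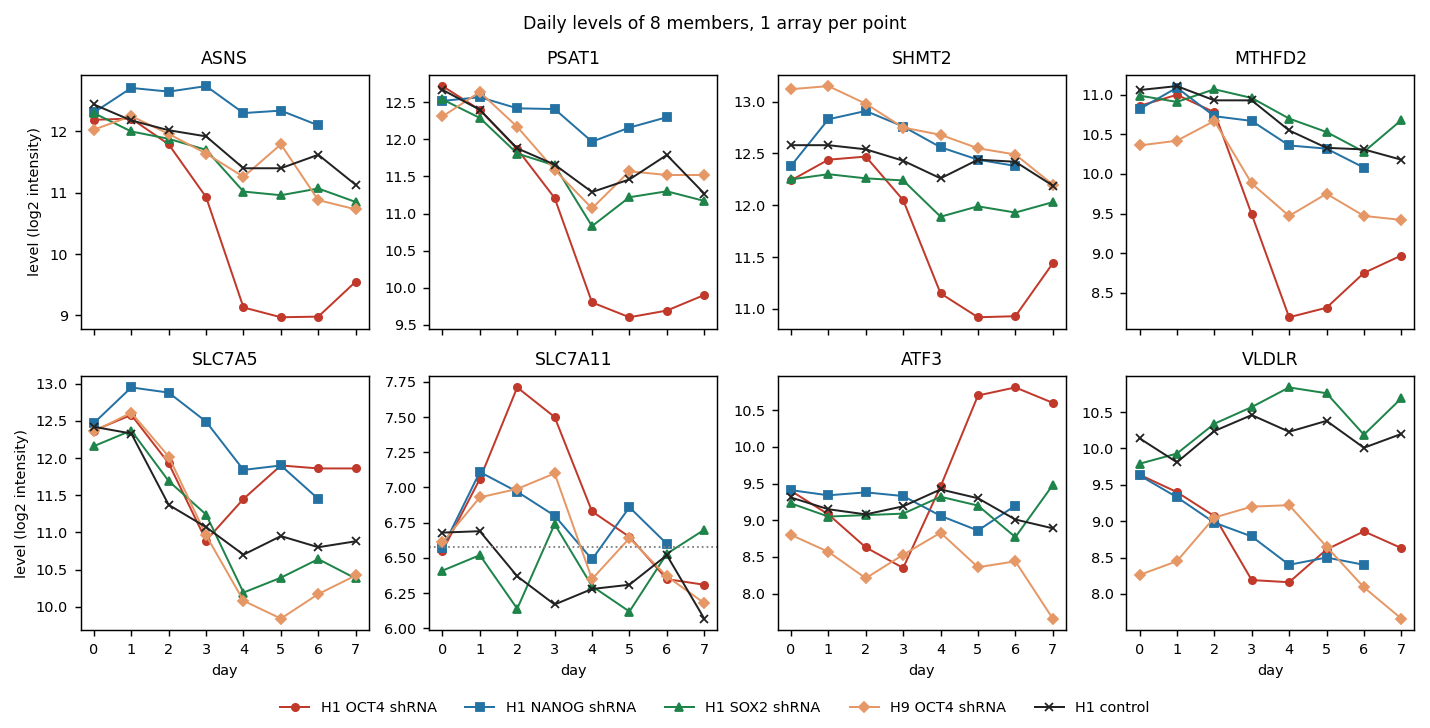
Level (log2 intensity, vertical axis) on each day for 8 genes, 1 array per point, in H1 OCT4 shRNA, H1 NANOG shRNA, H1 SOX2 shRNA, H9 OCT4 shRNA and H1 control; the dotted line is the background level of 6.58. ASNS, PSAT1, SHMT2 and MTHFD2 part from control after day 2 in H1 OCT4 shRNA cells, ATF3 lies between 10.60 and 10.81 on days 5 to 7, and VLDLR is low in both OCT4 shRNA and NANOG shRNA cells.

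Among the synthetases, AARS (alanine), TARS (threonine) and YARS (tyrosine) lay furthest below control in H1 OCT4 shRNA cells. AARS had 11.73, 11.20, 11.42 and 11.58 on days 4 to 7 in OCT4 shRNA cells, against 12.34, 12.56, 12.57 and 12.50 in control cells (-1.01 ± 0.12, limma adjusted p = 1.69e-08). TARS had 9.72, 10.10, 10.32 and 10.53 in OCT4 shRNA cells, against 10.88, 10.99, 11.33 and 11.24 in control cells (-0.94 ± 0.19, limma adjusted p = 8.48e-05). The difference was -0.89 ± 0.13 for YARS, -0.69 ± 0.12 for IARS (isoleucine), -0.60 ± 0.11 for EPRS (glutamate and proline) and -0.38 ± 0.11 for LARS (leucine). A dimmer second probe of IARS, above background on 16 arrays, was not lower than in control (0.10).

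HARS (histidine), FARSA (a subunit of the phenylalanine enzyme) and RARS (arginine) went the other way. HARS had 9.86, 10.38, 10.58 and 10.52 in OCT4 shRNA cells, against 9.24, 9.57, 9.88 and 9.41 in control cells, with only the lowest OCT4 shRNA value under the highest control value (0.81 ± 0.14, limma adjusted p = 9.44e-06). FARSA was lowest on day 3 (7.92 in OCT4 shRNA cells, 8.49 in control cells) and highest on day 6 (9.54 in OCT4 shRNA cells, 8.78 in control cells), a late difference of 0.62 ± 0.18. RARS differed by 0.38 ± 0.09. FARSB, the other subunit of the phenylalanine enzyme, was not called (0.01), so the subunits were called unequally, though the difference between them was not tested. The remaining 9 synthetases (FARSB, GARS, KARS, MARS, NARS, QARS, SARS, VARS and WARS) lay between -0.26 and 0.16 and were not called.

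No synthetase was called in OCT4 shRNA cells over days 2 and 3 (limma; 0 higher and 3 lower at an unadjusted p under 0.05), and the daily medians are given as a description. The median difference between the OCT4 shRNA and control arrays of the same day was -0.01 over the 18 synthetases on day 2 and -0.43 on day 3. It was then -0.32 (day 4), -0.11 (day 5), -0.05 (day 6) and -0.12 (day 7). On day 3, 1 of the 18 was higher than in the control array, and on day 6, 8 of the 18 were. MARS (methionine) had 10.01 on day 3 in OCT4 shRNA cells, against 10.91 in control cells, and by day 7 had 11.01 in OCT4 shRNA cells and 10.87 in control cells. The enzymes took another course, with medians of -0.46 (day 3), -1.17 (day 4), -1.55 (day 5), -1.37 (day 6) and -1.06 (day 7). These daily values rest on 1 array per arm and have no test.

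**Figure D3:**
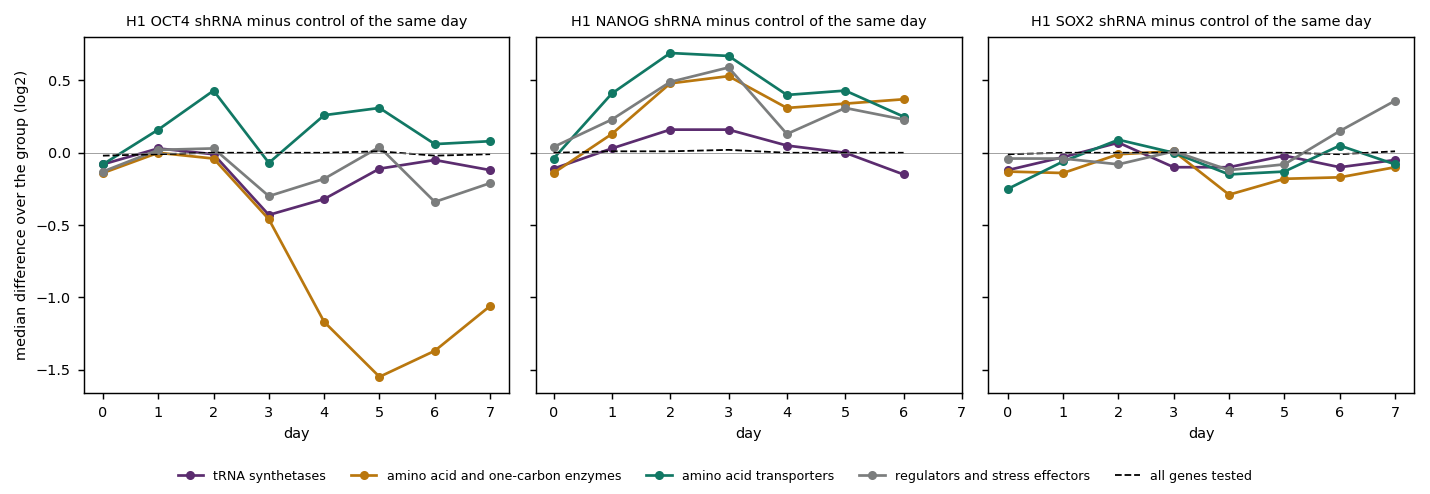
Median difference in level from the control array of the same day (log2, vertical axis) over the genes of each group, by day, for H1 OCT4 shRNA, NANOG shRNA and SOX2 shRNA; the dashed line is the median over all genes tested. Under OCT4 shRNA the enzyme line reaches -1.55 on day 5 while the synthetase line returns from -0.43 on day 3 to -0.05 on day 6; under NANOG shRNA the enzyme and transporter lines are above 0 from day 1 on.

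Of the transporters, SLC1A5, which carries glutamine, had 8.23, 8.19, 8.18 and 8.77 on days 4 to 7 in OCT4 shRNA cells, against 9.29, 9.49, 9.29 and 9.36 in control cells (-1.01 ± 0.14, limma adjusted p = 3.59e-07). SLC7A5, the large neutral amino acid transporter LAT1, had 11.45, 11.90, 11.86 and 11.86 in OCT4 shRNA cells, against 10.70, 10.95, 10.80 and 10.88 in control cells (0.93 ± 0.19, limma adjusted p = 0.000128). The higher level came after a shared decline: on day 3 SLC7A5 stood at 10.89 in OCT4 shRNA cells and 11.07 in control cells. SLC3A2, the partner chain of SLC7A5 and SLC7A11, was not called by its brightest probe (0.19), while its second probe gave 0.86. SLC38A2, a carrier of small neutral amino acids, was called higher (0.49 ± 0.18), but the call was lost, at values between 0.23 and 0.45, once day 4 or day 5 was dropped in all arms, in control or in OCT4 shRNA. SLC7A1, the carrier of arginine and lysine, dipped to 9.32 and 9.08 on days 3 and 4 in OCT4 shRNA cells, against 10.15 and 10.28 in control cells, and was not called over days 4 to 7 (-0.34).

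The regulators did not move as a unit either. ATF3, a stress-induced transcription factor, had 9.46, 10.70, 10.81 and 10.60 on days 4 to 7 in OCT4 shRNA cells, against 9.42, 9.30, 9.01 and 8.89 in control cells (1.24 ± 0.21, limma adjusted p = 1.06e-05). Before that it was lower, with 8.63 and 8.35 on days 2 and 3 in OCT4 shRNA cells against 9.08 and 9.19 in control cells, a difference of -0.65 that was not called. Other probes of ATF3 were above background on 0 arrays, so its values rest on 1 probe. ATF4 RNA differed by 0.52 ± 0.14 with its brightest probe, by 0.43 with another and by -0.33 with the dimmest, and the mean over its probes was not called (0.21). ATF4 is controlled mainly by translation, so its RNA does not report the protein. VLDLR, a lipoprotein and reelin receptor listed here as a stress target, had 8.16, 8.61, 8.86 and 8.63 in OCT4 shRNA cells, against 10.23, 10.38, 10.01 and 10.20 in control cells (-1.64 ± 0.21, limma adjusted p = 1.01e-07).

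Of the feedback and effector genes downstream of ATF4, TRIB3, CHAC1 and DDIT4 were called lower in OCT4 shRNA cells and DDIT3 was not called. TRIB3, the pseudokinase that inhibits ATF4 and DDIT3, had 6.49, 6.61, 6.71 and 6.76 in OCT4 shRNA cells, of which day 4 was not above background, against 7.31, 7.32, 7.05 and 7.24 in control cells (-0.59 ± 0.15, limma adjusted p = 0.00116). CHAC1, which degrades glutathione, was not above background on any OCT4 shRNA array from day 2 on and averaged 6.17 on days 4 to 7 against 6.81 in control cells, at least 1.17-fold lower (limma adjusted p = 0.000306). DDIT4, an inhibitor of mTORC1, was called lower (-0.63 ± 0.24) but lost its call at values between -0.60 and -0.48 without day 4, 5 or 6 of all arms, day 4 or 5 of control or day 6 of OCT4 shRNA. DDIT3 (CHOP), CEBPB and CEBPG, the partner of ATF4, were not called (0.35, 0.23 and -0.19).

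On days 2 and 3 few of these genes had parted from control. Against control, 1 gene was higher and 2 were lower in OCT4 shRNA cells, with 2.8% and 2.45% of all genes called higher and lower. SLC7A11, the cystine carrier, had 7.71 and 7.50 on days 2 and 3 in OCT4 shRNA cells, against 6.37 and 6.17 in control cells, both below background, so it was at least 2.03-fold higher (limma adjusted p = 0.000166). By day 7 it had returned to 6.31 in OCT4 shRNA cells. VLDLR (-1.72 ± 0.30) and CHAC1, at least 1.32-fold lower, made up the rest. The count of 3 was 0 without day 3 of all arms, 1 without day 3 of OCT4 shRNA and 11 without day 2 of OCT4 shRNA. Calls over all genes were then 10, 113 and 1171.

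With NANOG shRNA the calls were mostly upward, in enzymes, transporters and TRIB3. On days 4 to 7, 7 of the 41 genes were higher than in control and 2 lower, with 7.84% of all genes called higher and 7.55% lower. The 7 were TRIB3 (0.91 ± 0.16), SLC7A5 (0.89 ± 0.21), ASNS (0.86 ± 0.19), PSAT1 (0.69 ± 0.16), PSPH (0.55 ± 0.17), SLC3A2 (0.54 ± 0.12) and CEBPG (0.41 ± 0.12). Second probes gave 0.73 (ASNS), 0.92 (SLC3A2) and a smaller 0.23 (PSPH). Of 8 enzymes 3 were higher and none lower, of 6 transporters 2 were higher and none lower, and of 18 synthetases none was higher and TARS was lower (limma; at an unadjusted p under 0.05, 0 enzymes and 0 transporters were lower and 1 synthetase was higher). By linear slopes, and with the difference of days 0 and 1 subtracted, none of the 41 was called. PSPH and CEBPG lost their calls without single days or arrays of days 4 to 7, at values between 0.44 and 0.61 for PSPH and between 0.36 and 0.41 for CEBPG.

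ASNS had 12.30, 12.34 and 12.10 on days 4 to 6 in NANOG shRNA cells, above each of the late control values of 11.40, 11.40, 11.62 and 11.13. TRIB3 had 7.87, 8.17 and 8.38 in NANOG shRNA cells, against 7.31, 7.32, 7.05 and 7.24 in control cells. SLC7A5 had 11.84, 11.90 and 11.45 in NANOG shRNA cells, against 10.70, 10.95, 10.80 and 10.88 in control cells. None of the 3 genes' groups overlapped, which describes genes picked for large differences and is no further test. From days 0 and 1, when ASNS stood at 12.31 and 12.71 in NANOG shRNA cells, its change over the week was -0.26 in these cells and -0.92 in control cells. The change of TRIB3 was -0.29 in NANOG shRNA cells and -0.95 in control cells, and that of SLC7A5 was -0.98 in NANOG shRNA cells and -1.54 in control cells. None of the 3 was called in the test of that difference, with days 0 and 1 subtracted. VLDLR was the exception in direction, with 8.40, 8.50 and 8.40 in NANOG shRNA cells, against 10.23, 10.38, 10.01 and 10.20 in control cells (-1.77 ± 0.23, limma adjusted p = 1.22e-06). TARS had 10.75, 10.51 and 9.78 in NANOG shRNA cells, and without day 6 its difference was -0.40 (all arms) or -0.47 (NANOG shRNA), no longer called.

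On days 2 and 3, 4 genes were higher in NANOG shRNA cells than in control and 1 was lower, with 2.17% of all genes called higher and 1.78% lower. SLC7A5 had 12.88 and 12.49 in NANOG shRNA cells, against 11.37 and 11.07 in control cells (1.47 ± 0.27, limma adjusted p = 0.00144). TRIB3 (1.06 ± 0.21), CEBPB (0.91 ± 0.26) and SLC3A2 (0.88 ± 0.16) were also higher, and VLDLR was lower (-1.47 ± 0.30). Of the 7 genes higher on days 4 to 7, only SLC7A5, TRIB3 and SLC3A2 were called here. The others, ASNS (0.72), PSAT1 (0.65), PSPH (0.70) and CEBPG (0.49), were not, and CEBPB was not called on days 4 to 7 (0.41). The median over the 41 genes was 0.35, against 0.01 over all genes. With the day as a block, which pairs the arrays of 1 day, 10 genes were called in place of 5 (9 higher, 1 lower). The count was 1 without day 2 or day 3 of all arms, 2 without day 3 of control or of NANOG shRNA, and 9 where day 4 was left out in every arm. Calls over all genes were then 81, 14, 44, 72 and 735 in that order.

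With SOX2 shRNA few of these genes were called. On days 4 to 7 none of the 41 genes was higher and 4 were lower, with 3.55% of all genes called higher and 4.71% lower (limma; at an unadjusted p under 0.05, 0 were higher and 8 lower). TARS had 10.12, 10.12, 10.41 and 10.46 in SOX2 shRNA cells, against 10.88, 10.99, 11.33 and 11.24 in control cells, with no overlap (-0.83 ± 0.19, limma adjusted p = 0.00365). PSPH had 7.28, 7.15, 7.66 and 7.33 in SOX2 shRNA cells, against 7.99, 8.20, 7.93 and 8.04 in control cells (-0.69 ± 0.16, limma adjusted p = 0.00535), though its second probe gave -0.10. SHMT2 (-0.37 ± 0.12) and SARS, the serine enzyme (-0.36 ± 0.11), were near the threshold, with limma adjusted p-values of 0.0431 and 0.044. The count of 4 was 2 without day 0, 1, 4 or 6 of all arms or without day 4, 5 or 6 of control or of SOX2 shRNA alone, and 1 without day 5 of all arms. Calls over all genes ranged from 492 to 1079 with 1 day or array left out. On days 2 and 3 no gene was called in either direction, with 0.111% of all genes called higher and 0.297% lower (limma; 0 higher and 2 lower at an unadjusted p under 0.05).

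TARS was called lower in all 3 knockdowns of H1 cells, which share the control arrays. Of all genes, 24.3% (OCT4 shRNA), 7.55% (NANOG shRNA) and 4.71% (SOX2 shRNA) were called lower. How many of all genes were called lower in all 3 was not counted, so whether TARS stands out is not known. Its differences from control were -0.94 (OCT4 shRNA), -0.76 (NANOG shRNA) and -0.83 (SOX2 shRNA), and the differences between knockdowns were not called (OCT4 shRNA minus NANOG shRNA -0.18, OCT4 shRNA minus SOX2 shRNA -0.11, NANOG shRNA minus SOX2 shRNA 0.07). None of the other 40 genes was called in the same direction in all 3. With linear slopes, or with the difference of days 0 and 1 subtracted, TARS was called in none of the 3.

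The knockdowns of H1 cells were also set directly against each other, without the shared control. OCT4 shRNA cells had 6 genes higher and 20 lower than NANOG shRNA cells on days 4 to 7 (21.3% of all genes called higher, 21.9% lower), with all 8 enzymes lower, led by ASNS (-3.09) and PSAT1 (-2.40). Those higher were HARS (0.70), FARSA (0.65), RARS (0.65), KARS, the lysine enzyme (0.38), SLC38A2 (0.51) and ATF3 (1.36). OCT4 shRNA cells had 8 genes higher and 17 lower than SOX2 shRNA cells (23.7% of all genes called higher, 23.5% lower), with 7 of 8 enzymes lower and PSPH not called (0.18). Those higher were FARSA (0.74), RARS (0.61), HARS (0.53), SARS (0.52), SLC7A5 (1.36), SLC3A2 (0.37), ATF3 (1.20) and ATF4 (0.67). NANOG shRNA cells had 10 genes higher and 2 lower than SOX2 shRNA cells (9.53% of all genes called higher, 8.57% lower). Those higher included SLC7A5 (1.32), ASNS (1.27), PSPH (1.24) and PSAT1 (1.01), and the 2 lower were VLDLR (-2.19) and KARS (-0.37). The second probe of PSPH differed from control by only 0.23 in NANOG shRNA and -0.1 in SOX2 shRNA cells. With linear slopes, or with the difference of days 0 and 1 subtracted, the last comparison had 1 call.

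Control cells changed in these genes over the week too. Between days 0 and 1 and days 4 to 7, 9 of the 41 genes were lower in H1 control cells and none higher, when 0.163% of all genes (22 genes) were called higher and 0.371% (50 genes) lower (limma; at an unadjusted p under 0.05, 2 were higher and 19 lower). The 9 were SLC7A5 (-1.54 ± 0.23), PSAT1 (-1.08 ± 0.18), TRIB3 (-0.95 ± 0.18), ASNS (-0.92 ± 0.21), SLC1A5 (-0.84 ± 0.17), PSPH (-0.83 ± 0.20), AARS (-0.67 ± 0.14), SLC3A2 (-0.67 ± 0.14) and GARS, the glycine enzyme (-0.64 ± 0.15). SLC7A5 in control cells had 12.42 and 12.33 on days 0 and 1, 11.37 and 11.07 on days 2 and 3, and between 10.70 and 10.95 on days 4 to 7. None of the 9 cycling markers was called in this change, but so few of all genes were that this says little. The mean level of these markers lay between 10.13 and 10.31 on days 4 to 7 and between 10.21 and 10.31 on days 0 and 1. The count fell to 1 without day 0, 2 without day 1 or 6, 3 without day 5 and 5 without day 7 of all arms. Calls over all genes fell with it, to 13 (day 0), 10 (day 1), 17 (day 6), 15 (day 5) and 41 (day 7). Leaving out control arrays alone, the count was 0 without day 0, 2 without day 1 and 5 without day 4 or day 7, and linear slopes gave 0. Over all genes the calls without these control arrays were 2 (day 0), 6 (day 1), 70 (day 4) and 33 (day 7).

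The same change was larger or smaller by arm. H1 OCT4 shRNA cells had 4 genes higher and 25 lower on days 4 to 7 than on days 0 and 1 (21.8% and 20.3% of all genes), with ASNS at -3.04, PSAT1 at -2.81 and MTHFD2 at -2.38. The 4 were ATF3 (1.16), DDIT3 (0.78), RARS (0.49) and HARS (0.43). H1 SOX2 shRNA cells had 1 higher and 15 lower (3.48% and 3.55% of all genes), with SLC7A5 at -1.86, PSPH at -1.46 and PSAT1 at -1.28, and with DDIT3 higher (0.68). H1 NANOG shRNA cells had none higher and 5 lower (5.76% and 5.16% of all genes; limma, 0 higher and 16 lower at an unadjusted p under 0.05), namely VLDLR, SLC7A5, TARS, WARS (tryptophan) and NARS (asparagine), and no enzyme. The SOX2 shRNA count was 4 without day 0, 5 without day 1 and 10 without day 5 of all arms, 3 without its own day 0 and 6 without its own day 1. Calls over all genes were then 140, 225, 436, 162 and 254. The NANOG shRNA count was 2 without day 0, 0 without day 1, 8 without day 2 or 3, 3 without day 5 and 1 without day 6 of all arms, and 2, 1, 3, 3 and 1 without its own day 0, 1, 4, 5 and 6. Over all genes its calls ranged from 522 to 1826 with 1 day or array left out.

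H9 cells with OCT4 shRNA showed another pattern, which rests on moving the H9 values by 2 rows to repair the deposited columns. From days 0 and 1 to days 4 to 7, 1 gene was higher and 24 were lower (13.9% and 13.1% of all genes called). SLC7A5 had 10.08, 9.84, 10.17 and 10.42 on days 4 to 7, against 12.36 and 12.61 on days 0 and 1 (-2.36 ± 0.23, limma adjusted p = 1.36e-08). TRIB3 changed by -2.04 ± 0.18, PSPH by -1.69 ± 0.20, SLC7A1 by -1.67 ± 0.23, CEBPB by -1.40 ± 0.23 and CHAC1 by -1.26 ± 0.17. The second probe of PSPH changed by only -0.17 in H9 cells. Of 18 synthetases 8 were lower, led by TARS (-1.17 ± 0.23), YARS (-1.06 ± 0.16) and AARS (-1.02 ± 0.14). DDIT4 alone was higher, with 13.44, 14.40, 12.80 and 13.62 on days 4 to 7, against 11.69 and 11.03 on days 0 and 1 (2.20 ± 0.29, limma adjusted p = 1.64e-06). Without an H9 control, the effect of OCT4 shRNA and the drift of the culture cannot be told apart.

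**Figure D4:**
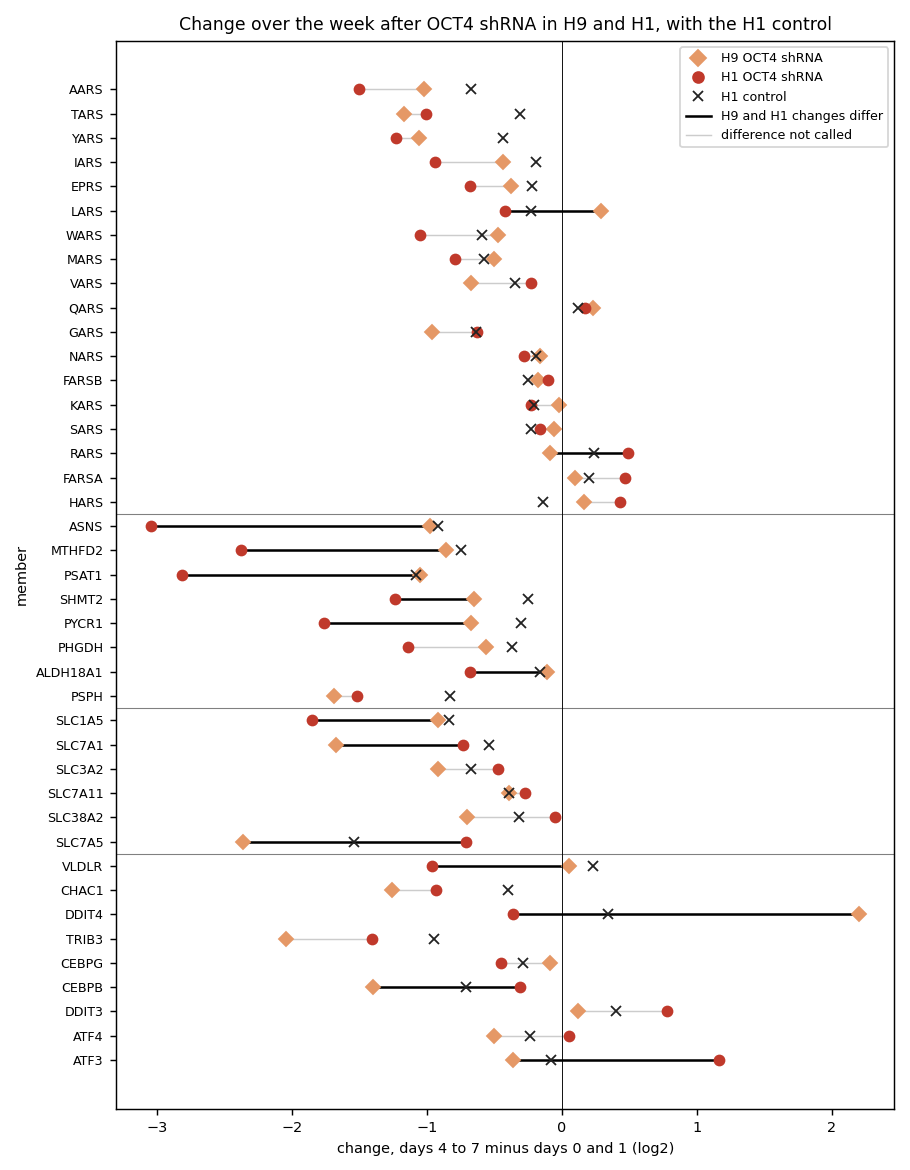
Change in level from days 0 and 1 to days 4 to 7 (horizontal axis, log2) for the 41 genes in H9 OCT4 shRNA, H1 OCT4 shRNA and H1 control cells; black lines join H9 and H1 values whose difference passed an adjusted p under 0.05. ASNS changed by -0.98 in H9 and -3.04 in H1 OCT4 shRNA cells, and DDIT4 by 2.20 and -0.36.

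The change in H9 cells was set against the change in H1 cells with the same shRNA as a difference of differences, and 15 of the 41 genes differed, 10 with a higher value in H9 and 5 with a lower one (14.1% and 14.3% of all genes). Of the enzymes, 6 of 8 fell less in H9: ASNS (difference 2.07 ± 0.30), PSAT1 (1.76 ± 0.26), MTHFD2 (1.51 ± 0.32), PYCR1 (1.09 ± 0.25), SHMT2 (0.58 ± 0.20) and ALDH18A1 (0.57 ± 0.18). PSPH changed alike within this error, by -1.69 in H9 and -1.52 in H1 (-0.17, not called). That holds for its brightest probe, while its second probe changed by only -0.17 in H9. The other values also rest on the brightest probes. A second probe of ASNS changed by -1.16 in H9, and 2 further probes of PYCR1 by -0.21 and -0.24. Against control in H1 OCT4 shRNA cells that ASNS probe gave -1.11, where the brightest gave -2.23. The line difference was not read for these further probes alone. DDIT4 (2.57 ± 0.42), VLDLR (1.01 ± 0.36), SLC1A5 (0.93 ± 0.24) and LARS (0.72 ± 0.20) also had the higher value in H9. SLC7A5 (-1.65 ± 0.33), ATF3 (-1.52 ± 0.37), CEBPB (-1.09 ± 0.32), SLC7A1 (-0.94 ± 0.33) and RARS (-0.58 ± 0.16) had the lower value in H9.

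ATF3 stayed between 7.66 and 8.83 on days 4 to 7 in H9 cells and lay between 9.46 and 10.81 in H1 OCT4 shRNA cells. The 2 lines also differed elsewhere. The trophoblast or amnion list lay between 6.25 and 6.41 on late H9 arrays, below background, and between 9.96 and 10.37 on late H1 OCT4 shRNA arrays. On late H9 arrays the neuroectoderm list lay between 8.55 and 9.34, above 7.8 and 7.81 on days 0 and 1. On late H1 OCT4 shRNA arrays the neuroectoderm list lay between 7.23 and 7.53. The fibroblast list lay between 7.91 and 8.16 on late H9 arrays and between 9.15 and 10.65 on late H1 OCT4 shRNA arrays. The cycling list lay between 10.05 and 10.16 on late H9 arrays and between 9.03 and 9.62 on late H1 OCT4 shRNA arrays, and POU5F1 was less reduced in H9 (-2.37 against -4.86). Their part in the difference was not tested. The count of 15 was 8 without day 0 and 9 without day 1 of all arms. Calls over all genes were then 1792 and 2464.

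Further genes of the same pathways, from lists chosen for this work, were read in the comparison of H1 OCT4 shRNA with control on days 4 to 7. Some genes stand in more than 1 list, so the counts of the lists are not separate. Of 13 measured genes of the folate and serine cycle outside the 43, 8 were lower and none higher (24.3% and 23.8% of all genes; limma, 0 higher at an unadjusted p under 0.05), led by GLDC and GCSH of the glycine cleavage system (-2.08 ± 0.17 and -1.45 ± 0.11) and AHCY, which clears S-adenosylhomocysteine (-1.08 ± 0.11). The same list had 1 gene higher and 1 lower in NANOG shRNA cells, TYMS, which makes thymidylate (0.67 ± 0.13), and MTHFD1, the cytosolic folate enzyme (-0.56 ± 0.10), and none in SOX2 shRNA cells. Over all genes 7.84% were higher and 7.55% lower in NANOG shRNA cells, and 3.55% and 4.71% in SOX2 shRNA cells. Of 18 further ATF4 targets, 1 was higher and 8 lower in OCT4 shRNA cells against the same shares of all genes, with SLC7A3, a carrier of basic amino acids, at -3.48 ± 0.32, GDF15, a secreted stress factor, at -1.55 ± 0.23 and FAM129A at -1.34 ± 0.27, against GOT1, the aspartate aminotransferase, at 0.35 ± 0.09. In NANOG shRNA cells 2 of the 18 were higher, ATF5, a relative of ATF4 (1.63 ± 0.18), and SLC6A9, a glycine carrier (0.57 ± 0.13), and GDF15 was lower (-0.96 ± 0.24). In SOX2 shRNA cells only FAM129A was lower (-0.86 ± 0.27).

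Of 17 measured genes for eIF2, its kinases, exchange factor and phosphatase and for amino acid and mTORC1 sensing, 7 were higher and 2 lower in H1 OCT4 shRNA cells, with 23.8% and 24.3% of all genes. Some of these genes, such as PPP1R15A and the sestrins, are themselves induced by stress. The largest were SESN3, a sestrin that restrains mTORC1 (1.72 ± 0.12), PPP1R15A, the stress-induced subunit that brings a phosphatase to eIF2 (0.88 ± 0.18), and EIF2B4, a subunit of the exchange factor (0.82 ± 0.14). The 2 lower were DEPTOR, an mTOR inhibitor (-1 ± 0.13), and EIF2AK4, the GCN2 kinase (-0.62 ± 0.11). In NANOG shRNA cells SESN3 was higher (1.03 ± 0.13) and DEPTOR (-0.80 ± 0.15) and EIF2AK4 (-0.40 ± 0.12) were lower, and in SOX2 shRNA cells only SESN2, the leucine-sensing sestrin, was called (0.50 ± 0.16, higher). The 3 measured genes of the synthetase complex and tRNA export list were all lower in OCT4 shRNA cells. They were XPOT, the tRNA exporter (-0.68 ± 0.13), DTD1, which removes D-amino acids from tRNA (-0.77 ± 0.13), and TRNT1, which adds the CCA end to tRNA (-0.38 ± 0.13). None was called in NANOG shRNA or SOX2 shRNA cells. The listed proteins of the synthetase complex itself were not measured, so these calls do not describe the complex.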

How the data were processed

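RNA was measured in 40 samples on 1-colour Illumina bead arrays. The deposited table holds intensity values that, from the values, the authors had quantile normalized (at least 98.4% of sorted values are shared between columns). The normalization is not given in the sources used here. The deposited values of the NANOG shRNA day 7 array, treated as a score because the authors' scale for it is not given in the sources used here, had a median of 6.8 and were left out. Of a further deposited table, 80 value columns that name no sample were not used. The H9 columns were moved by 2 rows from about row 13058, since their correlation with H1 was 0.987 before it, 0.224 after it and 0.99 once moved, and 30 probes there were left out.

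Intensities were corrected by normexp (offset 50) and put on the log2 scale. Background was the 99th percentile of 457 olfactory receptor probes (145.4). A probe passed if above it on at least 4 arrays, and the brightest of a gene's passing probes was used. limma 3.58.1 in R 4.3.3 was fitted to arm and window means over 39 arrays, with Benjamini-Hochberg adjustment over 13461 genes. The fit was tested on simulated data. The members and the lists were chosen with earlier results of these data known. The text names, per group and direction, up to 3 called genes with the largest difference, any that go against their group, and up to 3 per further list. It gives array values for the 8 with the largest difference from control, and some others were chosen for naming with their values in view. Of 56 correlations between deviations of arrays of the same day, 33 exceeded 0.1 (median 0.128, from -0.14 to 0.45), so most pairs correlated weakly but not every pair did, and the day was kept as an alternative block. Alternatives were the offset, the filter, the probe rule, the windows, the H9 arm, the starting difference, slopes, the day as a block, and leaving out arrays. The number of arrays limits the precision.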

Additional observations from a re-analysis of the deposited data

Results flagged for a closer look

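Values of 1 gene in 1 arm on the 4 arrays of days 4 to 7 were taken as a group. In 12 of 164 such groups 1 value stood far from the other 3. Chance gives about 1 in 20, so many of the 12 may be due to chance. In H1 OCT4 shRNA cells, day 4 stood apart for ATF3 (9.46, the others from 10.60 to 10.81), EPRS (11.32) and SLC7A5 (11.45), day 6 for PSPH (7.75) and day 7 for SLC1A5 (8.77). In SOX2 shRNA cells, day 7 stood apart for CEBPB (10.33) and SARS (9.27) and day 4 for YARS (11.21). In H9 OCT4 shRNA cells, day 4 stood apart for PSAT1 (11.07) and day 5 for MTHFD2 (9.75). In H1 control cells, day 6 stood apart for FARSB (13.99) and RARS (11.74). Days of a window are successive times of 1 culture.

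The change from days 0 and 1 to days 4 to 7 under OCT4 shRNA differed between H9 and H1 for 15 genes. This is limma's test of the difference itself, on each gene's brightest probe. The H9 value was higher for DDIT4 (2.57), ASNS (2.07), PSAT1 (1.76), MTHFD2 (1.51), PYCR1 (1.09), VLDLR (1.01), SLC1A5 (0.93), LARS (0.72), SHMT2 (0.58) and ALDH18A1 (0.57). It was lower for SLC7A5 (-1.65), ATF3 (-1.52), CEBPB (-1.09), SLC7A1 (-0.94) and RARS (-0.58).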

How the results depend on the processing

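Counts are of the 41 genes called. With the difference of days 0 and 1 subtracted, OCT4 shRNA against control had 13, NANOG shRNA 0 and SOX2 shRNA 0, OCT4 against NANOG shRNA 15 and NANOG against SOX2 shRNA 1. Linear slopes gave 14, 0 and 0 against control, 12 and 1 for these pairs and 16 for OCT4 against SOX2 shRNA, and the changes over the week gave 3 (NANOG shRNA), 7 (SOX2 shRNA) and 0 (control). Under slopes, in log2 per day, SLC38A2 (-0.01, OCT4 shRNA against control), SLC3A2 (0.01) and SLC7A1 (0.03, both OCT4 against NANOG shRNA) turned sign. SOX2 shRNA against control gave 2 with an offset of 16, with no filter or with days 5 to 7. NANOG shRNA on days 2 and 3 gave 9 without the H9 arm or with days 5 to 7, and 10 with the day as a replicate block. The block moved no other count by over 1.5 times. The cause of these shifts was not tested.

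Leaving out 1 day or array gave 23 to 27 calls for OCT4 shRNA against control on days 4 to 7, 7 to 9 for NANOG shRNA and 1 to 5 for SOX2 shRNA. Over all genes the calls were 5321 to 6617, 909 to 1989 and 492 to 1079. On days 2 and 3 leaving out 1 day or array gave 0 to 11, 1 to 9 and 0 to 0 in the same order of arms. Over all genes these were 10 to 1171, 14 to 735 and 1 to 74. Changes over the week ranged from 23 to 29 (H1 OCT4 shRNA), 0 to 8 (NANOG shRNA), 3 to 17 (SOX2 shRNA), 18 to 25 (H9) and 0 to 10 (control). Over all genes they ranged from 3958 to 5907, 522 to 1826, 140 to 1012, 1969 to 3920 and 2 to 173. The line difference ranged from 8 to 21, OCT4 against NANOG shRNA from 20 to 27, OCT4 against SOX2 shRNA from 23 to 26 and NANOG against SOX2 shRNA from 9 to 13. Over all genes these ranged from 1792 to 4273, 4371 to 6050, 5115 to 6496 and 1325 to 2363. Of 2143 values of single genes under the other alternatives, 1946 kept direction and side of the threshold, 194 lost the call and 3 turned sign. Each arm is 1 time course, so these ranges do not measure differences between cultures.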

Other observations

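Neighbouring gene lists, chosen with earlier results known, gave the following calls on days 4 to 7 against H1 control. Some of their genes, such as SLC7A3, were already counted among the further ATF4 targets. Over all genes 23.8% were higher and 24.3% lower in OCT4 shRNA cells, 7.84% and 7.55% in NANOG shRNA cells, and 3.55% and 4.71% in SOX2 shRNA cells. The counts of mitochondrial synthetases, transporters and translation factors in OCT4 shRNA cells lie near these shares and are no result about those lists. Of 15 measured mitochondrial tRNA synthetases, 4 were higher and 3 lower in OCT4 shRNA cells, among them FARS2 (0.75 ± 0.12, SE) and SARS2 (-0.50 ± 0.09), with 1 higher and 2 lower in NANOG shRNA cells and 1 lower in SOX2 shRNA cells. Of 15 genes of the unfolded protein response of the endoplasmic reticulum, 2 were higher and 6 lower in OCT4 shRNA cells, led by the chaperone CANX (-0.99 ± 0.13) and the disulfide isomerase PDIA6 (-0.99 ± 0.13), against ATF6, a sensor of that stress (0.75 ± 0.09). Of 16 other amino acid transporters, 4 were higher and 6 lower in OCT4 shRNA cells, from SLC7A3 (-3.48 ± 0.32) and SLC7A8 (-1.95 ± 0.19) to SLC38A1 (1.42 ± 0.14). In NANOG shRNA cells 4 of the 16 were higher and 2 lower.

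MYCN (-1.94 ± 0.27) and MYC (-1.37 ± 0.26), transcription factors of growth and metabolism, were lower in OCT4 shRNA cells, and MYC was lower in NANOG shRNA cells (-1.62 ± 0.28). Of 17 translation factors, 3 were higher and 6 lower in OCT4 shRNA cells, with EIF2S2, a subunit of eIF2, at -0.98 ± 0.11 and EIF5 at 0.68 ± 0.17. EIF5 was also higher in NANOG shRNA cells (0.80 ± 0.18).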
